A study of Mus musculus with 9 samples.

Results

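Oviducts of mature CD1 mice in estrus were compared with oviducts of sexually immature CD1 mice across all 28214 probe sets of an Affymetrix gene array. The comparison uses 6 of the 9 arrays of the series, chosen by their labels alone: the 3 titled estrus and the 3 titled Control, which are the immature females of day 21. The remaining 3 arrays, of diestrus, entered only the estimate of the spread. All groups were CD1 females that had received no hormonal stimulation, and each array carried RNA of whole oviduct pooled from 5 animals, so p-values measure the spread between pools and not between single mice. In the comparison, age and cycle stage change together: mature animals in estrus stand against juveniles that have not cycled, and the data cannot tell these apart.

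The oviduct is the tube in which eggs are fertilised and from which embryos pass to the uterus. Its lining holds ciliated cells, whose beating cilia move the contents, and secretory cells, which make oviductal fluid, on a wall of connective tissue and smooth muscle. In the weeks after birth the tube still grows, and its epithelial cells build many centrioles each as they become ciliated. From puberty on, estrogen from growing follicles and progesterone from corpora lutea act on it in turn, and estrus is the stage around mating and ovulation.

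Values are log2 intensities after robust multi-array averaging (RMA), so a difference of 1 is 2-fold. The medians of the 6 arrays lay between 8.85 and 8.90, and their number limits the precision: the median standard error (SE) of a difference was 0.08. Markers of the main cell types of the oviduct were bright. All 6 markers of ciliated cells, 5 of 5 measured markers of secretory cells, 4 of 4 of smooth muscle and 5 of 5 of stromal fibroblasts lay above the median of each of the 6 arrays, whereas 3 of 3 oocyte markers and 2 of 2 T cell markers lay below it on all 6. Other cell types were mixed. Above the median on all 6 arrays lay 2 of 4 measured granulosa or cumulus cell markers, and as many lay below it. For endothelial, macrophage, plasma, fat and skeletal muscle cells, 1 of 3 markers lay above on all 6 and 1 of 3 below. No theca or luteal, red blood cell or uterus marker lay above it on all 6. Foxj1, the transcription factor of ciliated cells, measured 11.40, 11.40 and 11.67 on immature arrays 1, 2 and 3 and 11.37, 11.55 and 11.26 on estrus arrays 1, 2 and 3. Pax8 and Wt1, transcription factors of the secretory epithelium and, for Wt1, also of stroma and mesothelium, differed by 0.01 ± 0.10 and 0.01 ± 0.06 (estrus minus immature, ± SE). Ovgp1, the oviductal glycoprotein, is measured here only together with another gene and is given no value.

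Few genes passed the test. Of all probe sets, 24 (0.0851%) were called, that is, reached an adjusted p under 0.05 in limma with Benjamini-Hochberg adjustment over all probe sets. Of these, 9 (0.0319%) were higher in estrus and 15 (0.0532%) were lower. The genes that rose were Jchain, Mmd2 and Pcdh17, beside 4 immunoglobulin probe sets, each with several gene symbols, and 2 probe sets with no symbol. Those that fell were Ccna1, Cks2, Spc25, Stil, Tet1, Nrep, Adam5, Itm2a and G6pc2, beside 2 histone probe sets, 1 for adult beta-globin and 1 further probe set, each with several symbols, and 2 with no symbol. The largest difference among probe sets without a symbol was -1.29 ± 0.11 (limma adjusted p = 0.00921). At an unadjusted p under 0.05 there were 1839 of all 28214 probe sets, 634 higher and 1205 lower. The counts of list genes at that unadjusted p, given below, are to be read beside these numbers. The 3 estrus arrays lay apart from the 3 immature arrays in 2766 probe sets (9.8%), above them in 899 (3.19%) and below them in 1867 (6.62%). The count of calls depended on the arrays: it was 1 without immature 3 and 95 without diestrus 3.

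The 12 called genes fall into a few kinds. With each of 19937 genes taken by its brightest probe set, 10 (0.0502%) were called. Some of the 12 thus have a brighter probe set of their own that was not called. Ccna1, Jchain, Spc25 and Stil are not among these, since each was called by its brightest probe set. The values given here for the 12 are those of the called probe set, and a brighter one that was not called is not shown. Ccna1, cyclin A1, works in meiosis of the testis and in the program by which ciliating cells multiply their centrioles. It measured 10.20, 10.04 and 10.35 on immature arrays 1 to 3 and 9.23, 9.16 and 9.10 on estrus arrays 1 to 3, with every immature array above every estrus array by a wide gap. The immature mean was 2.04-fold that in estrus, a difference of -1.03 ± 0.08 (limma adjusted p = 0.00618), and Ccna1 alone among the 12 was called with each of the 9 arrays left out in turn.

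Jchain encodes the joining chain that links immunoglobulin A and M into polymers for export across mucosal epithelia. It measured 7.30, 6.92 and 6.79 on the immature arrays and 8.84, 9.51 and 8.81 on the estrus arrays. The groups were far apart, with the immature values below the array medians, so the immature level is not shown to be above background. The measured ratio of estrus to immature was 4.15-fold, or 2.05 ± 0.20 (limma adjusted p = 0.0182), and its size is limited by the dim immature signal. The call held in 7 of 9 leave-one-out fits, and the adjusted p was 0.093 without immature 2 and 0.11 without immature 3. It was also lost in a fit with the replicate number as a block.

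The other calls were smaller and closer to the threshold. Of the other 10 genes, Spc25 kept its call in 2 of 9 leave-one-out fits (without estrus 1 or diestrus 3) and Mmd2 in 2 (without immature 1 or diestrus 3). The remaining 8 kept it only in the fit without diestrus 3. Mmd2, a membrane protein of the progestin and adipoQ receptor family, measured 10.06, 9.96 and 9.72 on the immature and 10.56, 10.53 and 10.54 on the estrus arrays, a rise of 0.63 ± 0.08. Pcdh17, a protocadherin of cell adhesion, measured 8.70, 8.82 and 8.68 against 9.18, 9.36 and 9.27, a rise of 0.54 ± 0.07. In both genes the estrus arrays lay above all immature arrays and close to each other (both limma adjusted p = 0.0369).

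Among the genes that fell, Itm2a, a membrane protein first known from cartilage and activated T cells, measured 11.01, 10.81 and 10.94 on the immature and 10.28, 10.34 and 10.51 on the estrus arrays (-0.55 ± 0.07, limma adjusted p = 0.0374). Nrep, a neuronal regeneration related protein also found in contractile fibroblasts, measured 10.58, 10.63 and 10.60 against 9.96, 9.98 and 9.92 (-0.65 ± 0.09, limma adjusted p = 0.0369). The 3 arrays of either group lay close together for Nrep. Adam5, a member of the ADAM family best known in testis, measured 9.52, 9.28 and 9.57 against 8.88, 8.83 and 8.62 (-0.68 ± 0.09, limma adjusted p = 0.0369).

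Tet1 encodes an enzyme that oxidises 5-methylcytosine in DNA. It measured 8.40, 8.28 and 8.40 on the immature and 7.96, 7.92 and 7.94 on the estrus arrays (-0.42 ± 0.05, limma adjusted p = 0.0369). G6pc2, an islet glucose-6-phosphatase catalytic subunit, measured 8.51, 8.54 and 8.63 against 8.14, 8.03 and 7.89 (-0.54 ± 0.07, limma adjusted p = 0.0423). In both genes the estrus values lay below the array medians. G6pc2 is the direct neighbour of Spc25, with 0 genes between them in RefSeq on GRCm38.p6, and the platform's table gives each its own probe set. Estrus values of Cks2, Spc25, Stil and Adam5 and immature values of Pcdh17 also lay below the array medians, so these lower levels are not shown to be above background.

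**Figure D1:**
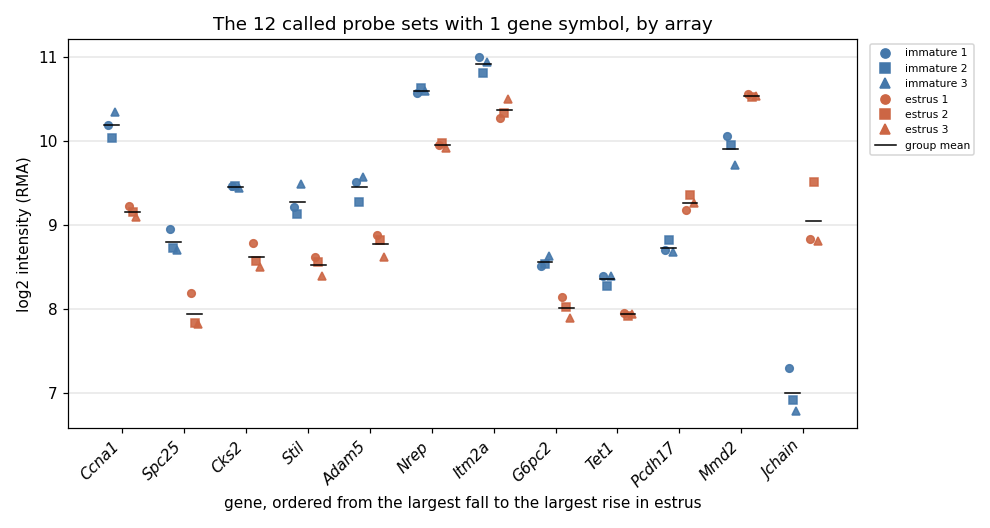
Log2 intensity of the 12 called probe sets with 1 gene symbol on each of the 3 immature and 3 estrus arrays (points), with horizontal bars for the group means. The arrays of both groups are apart in all 12 genes, most widely for Jchain (6.79 to 7.30 in immature, 8.81 to 9.51 in estrus).

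Genes of cell division were lower in estrus as a group. Progression through mitosis rests on cyclins, on the kinetochore that ties chromosomes to microtubules, and on motor proteins of the spindle. These genes are switched on together late in the cell cycle, largely through a MuvB complex at CHR elements (cell cycle genes homology region) and through NF-Y at CCAAT boxes. All 49 measured genes of mitosis and cytokinesis had a lower mean in estrus, against 48.8% of the 19937 genes measured. In 45 of the 49, all 3 estrus arrays lay below all 3 immature arrays, against 7.99% of all genes. The median difference was -0.53, beside 0.002 over all genes, and lay between -0.58 and -0.48 when any 1 array was left out. Only 1 of them, Spc25, passed the threshold that 0.0502% of all genes passed. Without diestrus 3, 22 of the 49 did, beside 95 of all 28214 probe sets. With arrays weighted by their quality 40 did, beside 1023 of all 28214 probe sets. These list counts are descriptions, since the list was written with earlier results of these arrays known.

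The immature arrays were alike in their mean level over these 49 genes, at 8.82 to 8.92, and the estrus arrays ranged from 8.12 to 8.45, with estrus 1 the least low. In bulk tissue, fewer cells of a type and less RNA per cell cannot be told apart. Of the 49 genes, 25 had an immature mean below the median of all values, 8.88.

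The upstream sequences of 4 called genes of cell division and centriole formation, and of Mki67, are printed to show the CCAAT and CHR letters they share or lack. Each is the 250 bases before the RefSeq start on GRCm38.p6, 5′ to 3′ on the gene's strand, at chr2:69206214-69206463 (minus strand) for Spc25, chr13:51644982-51645231 (plus) for Cks2, chr4:114999868-115000117 (plus) for Stil, chr3:55055056-55055305 (minus) for Ccna1 and chr7:135716380-135716629 (minus) for Mki67. Capitals mark CCAAT and the CHR letters TTTGAA or TTCGAA, on either strand, and CCAAT on the opposite strand reads ATTGG.
Spc25: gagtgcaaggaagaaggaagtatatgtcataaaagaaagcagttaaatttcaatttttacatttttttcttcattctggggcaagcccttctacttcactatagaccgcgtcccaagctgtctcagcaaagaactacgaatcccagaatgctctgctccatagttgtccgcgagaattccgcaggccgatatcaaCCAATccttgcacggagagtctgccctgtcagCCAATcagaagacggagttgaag
Cks2: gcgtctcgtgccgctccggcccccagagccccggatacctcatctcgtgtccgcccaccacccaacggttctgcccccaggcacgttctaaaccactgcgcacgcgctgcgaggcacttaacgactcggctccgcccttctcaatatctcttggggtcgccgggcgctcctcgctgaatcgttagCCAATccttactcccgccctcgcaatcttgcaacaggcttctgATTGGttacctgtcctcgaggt
Stil: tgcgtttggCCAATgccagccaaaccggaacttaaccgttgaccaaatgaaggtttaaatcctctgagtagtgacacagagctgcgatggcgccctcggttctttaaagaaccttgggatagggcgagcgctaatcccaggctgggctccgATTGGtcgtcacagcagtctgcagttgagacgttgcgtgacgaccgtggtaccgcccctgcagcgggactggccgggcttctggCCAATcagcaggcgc
Ccna1: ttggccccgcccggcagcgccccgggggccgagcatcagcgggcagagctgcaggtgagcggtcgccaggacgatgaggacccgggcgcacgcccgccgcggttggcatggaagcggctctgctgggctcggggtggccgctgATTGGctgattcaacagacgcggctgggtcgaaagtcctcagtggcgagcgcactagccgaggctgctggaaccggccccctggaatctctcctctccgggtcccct
Mki67: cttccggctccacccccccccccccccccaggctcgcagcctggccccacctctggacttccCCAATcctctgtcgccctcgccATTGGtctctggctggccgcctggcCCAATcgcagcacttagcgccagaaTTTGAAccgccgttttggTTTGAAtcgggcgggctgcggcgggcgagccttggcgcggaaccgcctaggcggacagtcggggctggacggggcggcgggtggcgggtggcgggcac

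In these windows a CCAAT match began 55 and 23 bases before the start of Spc25, 65 and 22 bases before that of Cks2, 107 before that of Ccna1, and 241, 99 and 15 before that of Stil. Mki67 held 3 CCAAT matches, at 188, 166 and 141 bases, followed by CHR matches at 116 and 98. The CHR letters were not in the windows of Spc25, Cks2, Stil and Ccna1. Of the 40 mitosis genes with a RefSeq window, 29 (72.5%) held CCAAT, 15 (37.5%) held the CHR letters and 13 (32.5%) held both. Stil and Ccna1 belong to the list of centriole genes described below. Of the 20 genes of that list with a window, 6 (30%) held CCAAT, 3 (15%) the CHR letters and 2 (10%) both. Over 17491 protein-coding genes the shares were 39.5%, 18.4% and 6.83%. A match is a run of letters and not a measured binding site.

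Spc25, a subunit of the NDC80 complex that binds microtubules at the kinetochore, measured 8.96, 8.73 and 8.70 on the immature and 8.19, 7.83 and 7.82 on the estrus arrays (-0.85 ± 0.11, limma adjusted p = 0.0369). Cks2, a small subunit of cyclin-dependent kinases that is outside the list, measured 9.47, 9.47 and 9.44 against 8.79, 8.58 and 8.50 (-0.84 ± 0.11, limma adjusted p = 0.0369). Estrus 1 was the highest estrus array in both genes and still lay below every immature array.

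Ccna2, the cyclin of S phase and mitotic entry, had the largest difference of the mitosis list, with 10.21, 10.27 and 10.20 on the immature and 9.30, 8.82 and 8.92 on the estrus arrays (-1.21 ± 0.17). It missed the threshold (limma adjusted p = 0.0524), and passed it without diestrus 3 (0.0135). Mki67, the proliferation antigen that coats mitotic chromosomes, measured 10.06, 9.98 and 9.81 against 9.24, 8.51 and 8.74 (-1.12 ± 0.24, limma adjusted p = 0.203, and 0.0369 without diestrus 3). In both genes every immature array was above every estrus array, and estrus 1 was the highest of the estrus arrays.

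Further mitosis genes were apart by group but not called in limma. The condensin subunit Ncaph differed by -0.53 ± 0.08 (adjusted p = 0.056), the spindle motor Kif11 by -0.76 ± 0.12 (0.0857), the spindle protein Ckap2l by -0.66 ± 0.10 (0.0857) and the kinetochore scaffold Knl1 by -0.88 ± 0.14 (0.0864). Knl1 measured 9.16, 9.16 and 8.99 on the immature and 8.48, 8.13 and 8.07 on the estrus arrays, the latter below the array medians. Nrm, which encodes the nuclear membrane protein nurim, belongs to no list and differed by -0.40 ± 0.06 (adjusted p = 0.0864).

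**Figure D2:**
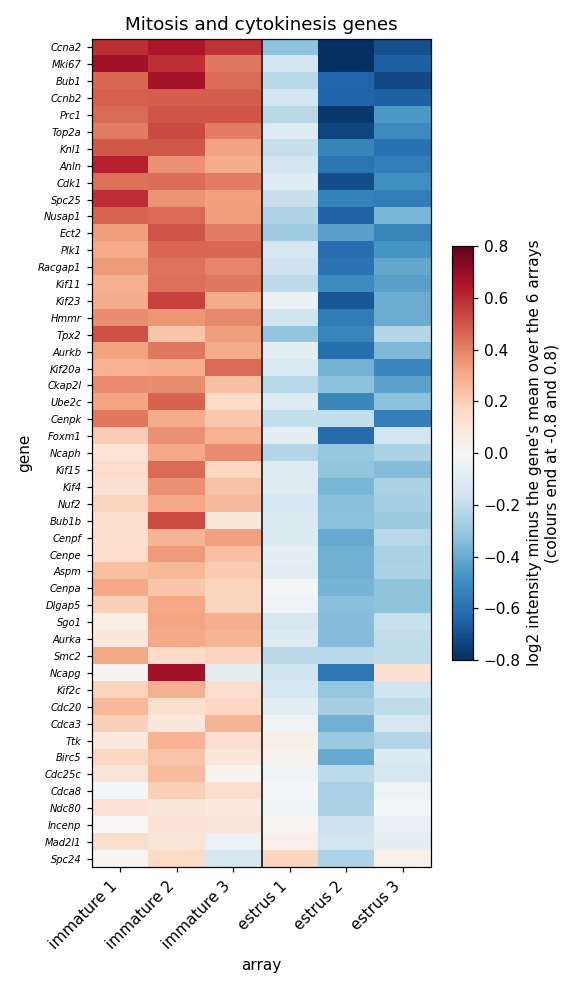
Heat map of the 49 mitosis and cytokinesis genes (rows) on the 3 immature and 3 estrus arrays (columns), as log2 intensity minus the mean of the gene over the 6 arrays, with colours ending at -0.8 and 0.8. Immature columns are above and estrus columns below the mean in nearly every row, and estrus 1 is the least low of the estrus arrays.

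DNA replication genes showed smaller differences. Of 35 measured genes of S phase, 34 had a lower mean in estrus (48.8% of all genes did), 22 had all estrus arrays below all immature arrays (7.99%), and the median difference was -0.26. No gene was called in limma. Without diestrus 3, 4 of the 35 were called, beside 95 of all 28214 probe sets. At an unadjusted p under 0.05, 22 of the 35 were lower, beside 1205 of all 28214 probe sets. Dtl, which directs the licensing factor Cdt1 to destruction, measured 9.04, 9.28 and 9.31 on the immature and 8.70, 8.38 and 8.48 on the estrus arrays (-0.70 ± 0.14, adjusted p = 0.159). Chaf1b of the histone chaperone CAF-1 differed by -0.53 ± 0.10 (0.116), the maintenance methylation factor Uhrf1 by -0.43 ± 0.10 (0.271) and the clamp loader subunit Rfc4 by -0.37 ± 0.09 (0.294). Of the 30 genes of this list with a RefSeq window, 18 (60%) held CCAAT, and 6 (20%) held TTTCCCGC or TTTGGCGC, letters of E2F sites, on either strand, against 1.93% of all protein-coding genes.

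Histone genes of the clusters that supply nucleosomes in S phase also leaned lower. Among 48 probe sets for replication-dependent histones, 40 had a lower mean in estrus, 22 had all estrus arrays below all immature arrays (6.62% of all probe sets did), and 2, each with several symbols, fell past the threshold (0.0532%). Their median difference was -0.21, with a range from -1.87 to 0.54. The largest fall among all called probe sets was in this family: 10.85, 10.79 and 11.19 on the immature and 9.21, 8.94 and 9.07 on the estrus arrays (-1.87 ± 0.20, limma adjusted p = 0.0268). H2bc14, an H2B gene, had a probe set of its own and measured 10.88, 10.83 and 10.95 against 10.39, 10.30 and 10.11 (-0.62 ± 0.09, adjusted p = 0.0748). Cluster histone genes are near copies of each other, so their probe sets can share signal, and the family was put together after values had been seen.

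Genes that multiply centrioles for cilia and genes of the cilium itself both leaned lower in estrus, and the difference between these lists was not tested. A cell that becomes ciliated makes many basal bodies at once from structures called deuterosomes. Of 26 measured genes of this process, 25 had a lower mean in estrus, 14 were apart by group and below (7.99% of all genes were), and the median difference was -0.16. Of these, 2 fell past the threshold (0.0502% of all genes were called), Ccna1, given above, and Stil, a centriole assembly factor that also serves dividing cells. Stil measured 9.22, 9.13 and 9.49 on the immature and 8.62, 8.56 and 8.39 on the estrus arrays (-0.75 ± 0.10, limma adjusted p = 0.0369), with immature 3 the highest in both genes.

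Cdc20b, whose gene hosts microRNAs of ciliogenesis and whose protein acts at deuterosomes, measured 9.76, 9.81 and 10.30 on the immature and 9.46, 9.28 and 9.24 on the estrus arrays (-0.63 ± 0.13, limma adjusted p = 0.166). Ccno, a cyclin-like protein required for centriole amplification, measured 9.90, 9.67 and 9.89 against 9.56, 9.40 and 9.27 (-0.41 ± 0.09, adjusted p = 0.211). Neither was called, although the arrays of both groups were apart in each. Foxj1, of the same list, overlapped between groups (-0.10 ± 0.13).

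Of 43 measured structural genes of motile cilia, 38 had a lower mean in estrus, 3 were apart by group and below, a share near the 7.99% of all genes, 5 reached an unadjusted p under 0.05 and none was called in limma. The median difference was -0.12, and it was -0.21 without immature 1, -0.03 without immature 3 and -0.05 without estrus 3. Tppp3, a tubulin-binding protein abundant in ciliated cells, measured 12.85, 13.00 and 13.16 against 12.85, 12.95 and 12.77 (-0.15 ± 0.08). Cfap52, a protein of the doublet microtubules, differed by -0.24 ± 0.08 (adjusted p = 0.584) and Spag16, of the central pair, by -0.31 ± 0.10 (0.538). Groups overlapped in Tppp3 and Cfap52 and were apart in Spag16, whose estrus values were below the array medians.

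Immunoglobulin probe sets were higher in estrus. Antibody chains are made by plasma cells, which in mucosa secrete polymeric immunoglobulin that the receptor Pigr carries through the epithelium. Of 30 probe sets for immunoglobulin chains and Jchain, 30 had a higher mean in estrus, 25 had all estrus arrays above all immature arrays (3.19% of all probe sets did), and 5, namely Jchain and 4 with several symbols, rose past the threshold (0.0319%). Their median difference was 0.53, with a range from 0.10 to 2.05. The median level of the 30 was 7.32, 7.13 and 7.15 on the immature arrays and 7.91, 8.10 and 7.93 on the estrus arrays. This family too was put together after values had been seen. Of the 30, 14 carry several symbols, antibody genes share sequence, and in 27 the immature values were below the array medians.

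The 4 called probe sets with several immunoglobulin symbols rose by 0.82 ± 0.12 to 1.17 ± 0.16 (limma adjusted p from 0.0339 to 0.0466). The kappa variable segment Igkv10-96, named after its value was seen, measured 6.37, 6.31 and 6.43 on the immature and 7.42, 8.57 and 8.36 on the estrus arrays (1.75 ± 0.28, adjusted p = 0.0857). The estrus arrays spread over more than 1 log2 unit, all above the immature arrays. Ighm, the constant chain of immunoglobulin M, measured 9.00, 9.15 and 8.93 against 9.29, 9.21 and 9.43 (0.28 ± 0.08, adjusted p = 0.473).

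Other genes of plasma cells and of antibody export were not called. Mzb1, a chaperone of antibody-secreting cells, differed by 0.01 ± 0.08, and Tnfrsf17, the plasma cell survival receptor BCMA, by 0.06 ± 0.07. Pigr measured 8.17, 8.16 and 7.87 on the immature and 8.48, 8.20 and 8.11 on the estrus arrays (0.20 ± 0.20, adjusted p = 0.874), with overlapping groups and immature values below the array medians. Over the whole list of 25 measured immunoglobulin and plasma cell genes, 20 had a higher mean in estrus. Of the 25, 3 were apart and above (2.62% of all genes were) and 2 apart and below (7.99%). At an unadjusted p under 0.05, 3 were higher and 2 lower, and 1 was called in limma. The median difference was 0.07, or 0.04 without immature 3, 0.03 without estrus 1 and 0.14 without estrus 2.

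**Figure D3:**
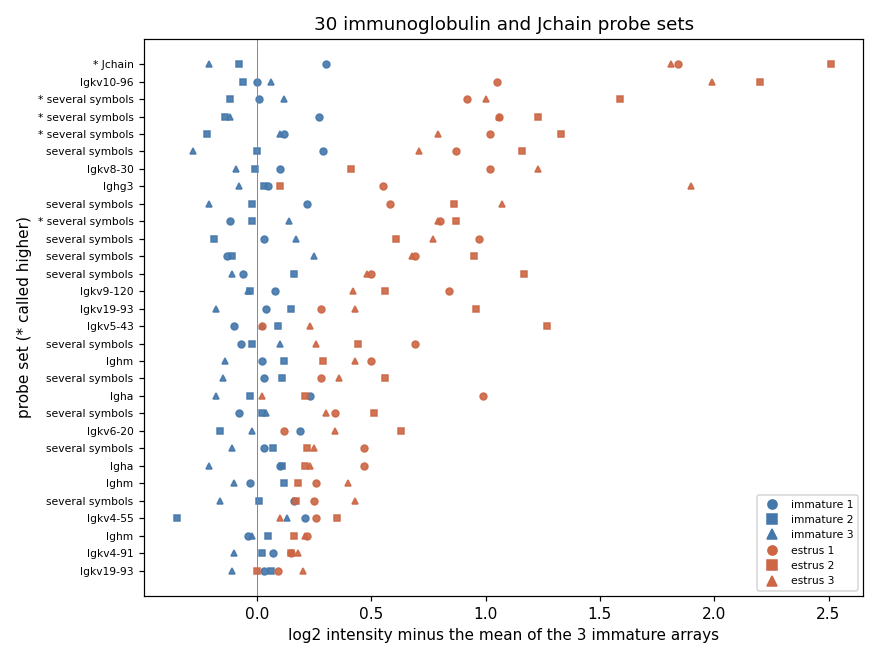
Log2 intensity of 30 immunoglobulin and Jchain probe sets on the 3 immature and 3 estrus arrays, minus the immature mean of each probe set, with asterisks on those called. All 30 have a higher mean in estrus, by 0.10 to 2.05, and in 25 every estrus array is above every immature array.

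Among genes of antigen presentation, H2-Aa stood nearest to the threshold. It encodes the alpha chain of the class II molecule I-A, which dendritic cells, macrophages and B cells use to show peptides to T cells. It measured 10.58, 10.55 and 10.73 on the immature and 11.05, 11.25 and 11.22 on the estrus arrays (0.56 ± 0.09, limma adjusted p = 0.0864, and 0.0242 without diestrus 3). Cd209a, a lectin of monocyte-derived dendritic cells, measured 8.69, 8.55 and 8.61 against 8.93, 9.31 and 9.33 (0.58 ± 0.12, adjusted p = 0.159). In both, every estrus array was above every immature array, and the immature values of Cd209a were below the array medians.

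Of 21 measured genes of class II presentation, 16 had a higher mean in estrus, 2 were apart and above (2.62% of all genes were), none was called in limma (2 higher and 1 lower at an unadjusted p under 0.05), and the median difference was 0.07, or 0.03 without immature 3 and 0.01 without estrus 1. Ifi30, a lysosomal thiol reductase of the same pathway, leaned the other way, at -0.31 ± 0.10 (adjusted p = 0.558). Markers of other leukocytes differed little: the median was 0.03 over 39 macrophage and granulocyte genes and 0.05 over 28 T and NK cell genes, with 24 of those 28 higher in mean. With 1 array left out these medians ranged from 0.00 to 0.05 and from 0.01 to 0.09. Of the 39, 27 and of the 28, 27 had an immature mean below the median of all values.

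Chemokines went both ways. Of 30 measured, 22 had a higher mean in estrus, 4 were apart and above (2.62% of all genes were) and 2 apart and below (7.99%), and none was called in limma, with 3 higher and 2 lower at an unadjusted p under 0.05. Ccl8, which draws monocytes, measured 8.14, 7.89 and 7.80 on the immature and 8.32, 8.38 and 8.53 on the estrus arrays (0.47 ± 0.10, adjusted p = 0.188), and Ccl11, the eosinophil chemokine eotaxin, differed by 0.37 ± 0.11 (0.526). Cxcl13, which draws B cells, was lower, at 9.51, 9.07 and 9.08 against 8.40, 8.86 and 8.55 (-0.62 ± 0.14, adjusted p = 0.249).

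Interferon response genes leaned lower in estrus. Of 31 measured, 25 had a lower mean, 12 were apart and below (7.99% of all genes were) and 1 apart and above (2.62%). At an unadjusted p under 0.05, 12 were lower and 2 higher, and none was called in limma. The median difference was -0.08, or -0.12 without immature 2 or immature 3 and -0.13 without estrus 3. Oas2, an activator of RNase L, measured 9.78, 9.59 and 9.56 on the immature and 9.19, 9.12 and 9.27 on the estrus arrays (-0.45 ± 0.09, adjusted p = 0.166), and its relative Oasl2 differed by -0.39 ± 0.09 (0.23). The antiviral enzyme Rsad2 differed by -0.23 ± 0.07 (0.449) and Ifi27l2a by -0.53 ± 0.16 (0.488). Of the 22 genes of this list with a RefSeq window, 10 (45.5%) held TTTC followed after any 2 bases by TTTC, the core of an interferon response element, on either strand, against 3.48% of all protein-coding genes. Ifi205, of the Ifi200 family of interferon-inducible genes, was outside the list and higher in estrus, at 9.13, 8.44 and 8.65 against 9.84, 10.12 and 9.35 (1.03 ± 0.22, adjusted p = 0.202).

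Genes of the connective tissue leaned lower in estrus with none called in limma. Fibroblasts lay down collagens, which enzymes then trim and cross-link, and coat them with proteoglycans and elastic fibres, and tissues in growth do so most. Of 19 measured collagens, 15 had a lower mean and 9 were apart and below, with a median of -0.11, where 48.8% of all genes had a lower mean and 7.99% were apart and below. Of 20 collagen processing enzymes, 14 had a lower mean and 7 were apart and below, with a median of -0.12. Both medians were -0.07 without estrus 2. At an unadjusted p under 0.05, 1 collagen and 5 enzymes were lower and 1 enzyme was higher. Of 35 genes of elastic fibres, proteoglycans and matricellular proteins, 26 had a lower mean and 15 were apart and below, with a median of -0.23, or -0.15 without immature 1, and 8 were lower and 1 higher at that unadjusted p.

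Col1a1, a chain of type I collagen, measured 11.62, 11.38 and 11.48 on the immature and 11.16, 10.83 and 10.97 on the estrus arrays (-0.51 ± 0.30, adjusted p = 0.837). Its groups were apart, but its SE, which includes the spread of the diestrus arrays, was large. Col14a1, a collagen on the surface of fibrils, differed by -0.46 ± 0.16 (0.601), Pcolce, which enhances procollagen cleavage, by -0.53 ± 0.11 (0.159), and the cross-linking enzyme Loxl1 by -0.26 ± 0.08 (0.534).

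Sparc, a collagen-binding matricellular protein, measured 13.40, 13.17 and 13.34 on the immature and 12.82, 12.59 and 12.91 on the estrus arrays (-0.53 ± 0.14, adjusted p = 0.318). Fibronectin, Fn1, differed by -0.28 ± 0.06 (0.209), the microfibril protein Mfap2 by -0.56 ± 0.13 (0.267), the elastic fibre protein Fbln1 by -0.49 ± 0.12 (0.261) and the basement membrane protein Nid2 by -0.29 ± 0.06 (0.135). Decorin, Dcn, overlapped between groups, with 13.74, 13.70 and 13.62 against 13.76, 13.69 and 13.77 (0.05 ± 0.07). Groups were thus apart for the proteins named before it and not for this proteoglycan. Clec11a, a secreted growth factor of bone marrow stroma, was outside these lists and differed by -0.41 ± 0.07 (0.0864).

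Growth factors of the juvenile period showed the same lean. A network of imprinted genes is active in young tissue and is shut down as growth slows. Of its 25 measured genes, 18 had a lower mean in estrus, 11 were apart and below (7.99% of all genes were), none was called in limma (10 lower at an unadjusted p under 0.05), and the median was -0.10, or -0.16 without immature 2 and -0.05 without estrus 1. Mest, an imprinted gene of mesoderm with an alpha/beta hydrolase fold, measured 8.77, 8.78 and 8.70 on the immature and 8.17, 7.96 and 8.07 on the estrus arrays (-0.68 ± 0.10, adjusted p = 0.0524, and 0.0272 without diestrus 3). Paternally expressed Peg3 differed by -0.41 ± 0.07 (0.119) and the Notch-like ligand Dlk1 by -0.27 ± 0.08 (0.524). All 3 genes were apart by group.

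Mdk, the heparin-binding growth factor midkine, is counted with that list though not imprinted, and measured 11.52, 11.22 and 11.26 on the immature and 10.89, 10.66 and 10.73 on the estrus arrays (-0.57 ± 0.09, adjusted p = 0.0864). Of 18 measured genes of insulin-like growth factor signalling, 12 had a lower mean and 7 were apart and below (7.99% of all genes were), with a median of -0.09 and none called in limma (7 lower at an unadjusted p under 0.05). Igfbp3, the main carrier of these factors in serum, measured 10.72, 10.36 and 10.48 against 9.91, 9.84 and 9.97 (-0.61 ± 0.10, adjusted p = 0.0931). Igfbp5 differed by -0.20 ± 0.07 (0.587), and Stc1, stanniocalcin, which blocks a protease of these binding proteins, by -0.38 ± 0.12 (0.564).

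Of 34 genes of the Wnt and hedgehog pathways, which pattern the tube, 26 had a lower mean, 12 were apart and below (7.99% of all genes were) and none was called in limma (7 lower at an unadjusted p under 0.05), with a median of -0.09, or -0.06 without immature 1. Sfrp1, a secreted Wnt antagonist, measured 10.61, 10.70 and 10.79 on the immature and 10.12, 10.27 and 10.15 on the estrus arrays (-0.52 ± 0.08, adjusted p = 0.0864). Lgr5, the R-spondin receptor of epithelial progenitors, differed by -0.37 ± 0.09 (0.318), the feedback inhibitor Nkd1 by -0.23 ± 0.06 (0.309) and the hedgehog effector Gli3 by -0.22 ± 0.07 (0.557). The arrays of each group were apart in these 4 genes.

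Genes that answer estrogen showed no common direction. Estrogen acts through the receptor Esr1, which induces the progesterone receptor Pgr and, in the mouse tract, secretory proteins such as lactotransferrin. Of 27 measured genes known to respond, 15 had a higher mean in estrus, 2 were apart and above (2.62% of all genes were) and none was called in limma (3 higher and 2 lower at an unadjusted p under 0.05). Their median was 0.01, and it ranged from -0.01 without estrus 1 to 0.12 without immature 1. It was 0.17 with both immature 1 and immature 2 left out, which leaves 1 immature pool. Esr1 measured 12.57, 12.49 and 12.57 on the immature and 12.60, 12.65 and 12.59 on the estrus arrays (0.07 ± 0.05, adjusted p = 0.854). Pgr differed by 0.18 ± 0.11 (0.844), with overlapping groups.

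Greb1, an estrogen receptor cofactor and target, measured 10.58, 10.46 and 10.26 on the immature and 10.65, 10.89 and 10.81 on the estrus arrays (0.35 ± 0.09, adjusted p = 0.336). Its groups were apart, though immature 1 came close to estrus 1. Ltf, the iron-binding secretory protein lactotransferrin, measured 12.56, 11.96 and 12.26 against 12.65, 13.02 and 12.47 (0.45 ± 0.18, adjusted p = 0.695), with estrus 3 below immature 1. The mucin Muc1 was lower, by -0.28 ± 0.09 (0.598).

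Genes that answer progesterone had a median of -0.02 over 19 measured, between -0.03 and 0.03 with 1 array left out. Of the 19, 1 was apart and above (2.62% of all genes were). Zbtb16, a transcription factor induced by progesterone and glucocorticoids, measured 9.22, 9.24 and 9.20 against 9.45, 9.75 and 9.37 (0.30 ± 0.13, adjusted p = 0.754). Over 37 enzymes and receptors of steroids and prostaglandins the median was -0.04, or -0.01 without immature 1 and 0.01 without immature 2. Of the 37, 2 were apart and above (2.62% of all genes were) and 4 apart and below (7.99%). Srd5a3, a reductase of the steroid 5-alpha family that makes dolichol, measured 10.80, 10.82 and 10.98 against 10.49, 10.55 and 10.56 (-0.34 ± 0.06, adjusted p = 0.11). Hsd17b11, a short-chain dehydrogenase, differed by 0.28 ± 0.10 (0.597), and Hpgd, which inactivates prostaglandins, by -0.23 ± 0.08 (0.664). No member of either list was called in limma, and at an unadjusted p under 0.05 there were 1 higher of the first list, and 1 higher and 3 lower of the second.

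Secretory cell genes had a median of -0.05 over 35 measured, 1 apart and above, 4 apart and below, near the 2.62% and 7.99% of all genes, and none called in limma (2 higher and 1 lower at an unadjusted p under 0.05). The median was -0.00 without estrus 1, -0.08 without estrus 2 and -0.03 without estrus 3. Gpx3, the secreted glutathione peroxidase, measured 11.15, 11.11 and 11.04 on the immature and 11.34, 11.67 and 11.33 on the estrus arrays (0.35 ± 0.12, adjusted p = 0.601). Of 42 genes for transport of ions, water and solutes, which set the composition of oviductal fluid, 3 were apart and above (2.62% of all genes were) and 2 apart and below (7.99%), with a median of -0.01 and none called in limma (3 higher and 1 lower at an unadjusted p under 0.05). Those 3 above were Aqp8, Car12 and Slc2a3.

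Aqp8, a water channel, measured 8.81, 8.30 and 8.06 on the immature and 9.16, 9.23 and 9.26 on the estrus arrays (0.82 ± 0.20, limma adjusted p = 0.263), with the immature values below the array medians. Car12, a carbonic anhydrase of the cell surface, measured 10.34, 9.81 and 9.68 against 10.57, 10.75 and 10.36 (0.61 ± 0.20, adjusted p = 0.575). Slc2a3, a glucose transporter, measured 12.16, 11.99 and 11.88 against 12.33, 12.67 and 12.32 (0.43 ± 0.13, adjusted p = 0.504). In all 3 genes immature 1 was the highest immature array. The chloride channel Cftr differed by 0.02 ± 0.07.

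Several genes outside the lists were higher on every estrus array without passing the threshold. Agmo, an enzyme that cleaves ether lipids, measured 9.97, 9.81 and 10.11 against 10.42, 10.60 and 10.38 (0.50 ± 0.09, limma adjusted p = 0.104). The noncoding RNA Snhg11 differed by 0.45 ± 0.10 (0.224) and the translation regulator Impact by 0.26 ± 0.06 (0.285). Znhit6, a factor of box C/D snoRNP assembly, differed by 0.37 ± 0.09 (0.294), the exchange factor relative Rapgefl1 by 0.35 ± 0.09 (0.306) and the GTPase Rab37 of secretory granules by 0.39 ± 0.10 (0.328).

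**Figure D4:**
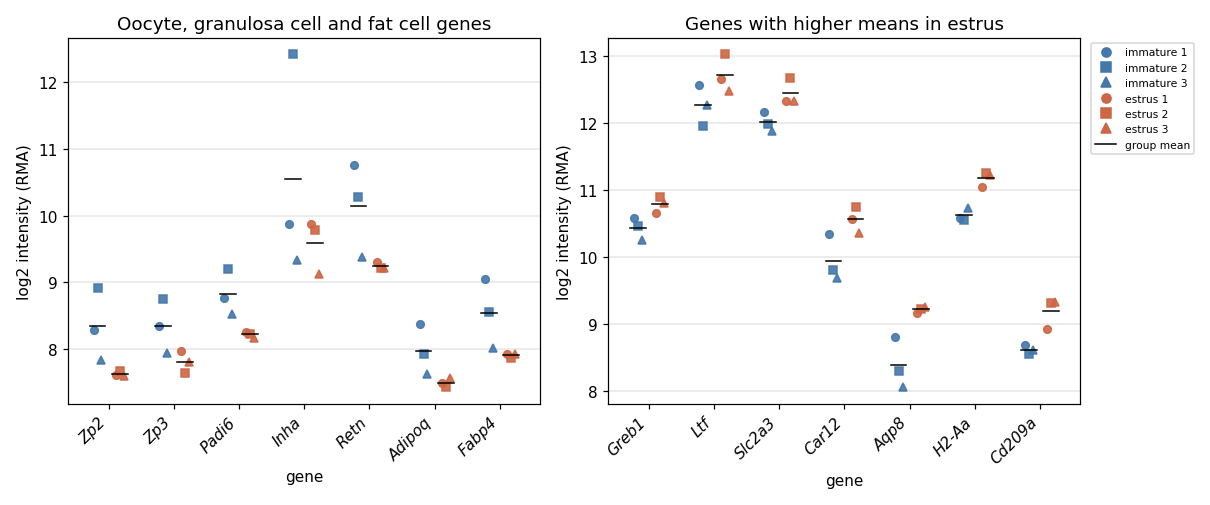
Log2 intensity on each immature and estrus array for markers of neighbouring cells (left: oocyte Zp2, Zp3 and Padi6, granulosa Inha, and fat Retn, Adipoq and Fabp4) and for genes with a higher mean in estrus (right: Greb1, Ltf, Slc2a3, Car12, Aqp8, H2-Aa and Cd209a). Inha on immature 2, at 12.42, is far above its other 5 values, and Retn, Adipoq and Fabp4 are highest on immature 1.

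Markers of cells next to the oviduct differed between single immature pools. Zp2, a protein of the egg coat, measured 8.29, 8.92 and 7.83 on the immature and 7.61, 7.67 and 7.59 on the estrus arrays (-0.72 ± 0.23, limma adjusted p = 0.534), and its partner Zp3 measured 8.35, 8.75 and 7.94 against 7.97, 7.64 and 7.80. Padi6, an oocyte enzyme, measured 8.76, 9.20 and 8.52 against 8.26, 8.23 and 8.17, and the oocyte gene Nlrp14 differed by -0.27 ± 0.09 (0.594). Immature 2 was the highest array in Zp2, Zp3 and Padi6. The mean of the 24 measured oocyte genes ranged from 7.90 to 8.31 on the immature and from 7.84 to 8.01 on the estrus arrays, below the array medians, with a median difference of -0.07 that was -0.02 without immature 2, -0.14 without immature 3, -0.14 without estrus 1 and -0.02 without estrus 2.

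Inha, the inhibin alpha subunit of granulosa cells, measured 9.88, 12.42 and 9.34 on the immature and 9.88, 9.78 and 9.13 on the estrus arrays, a difference of -0.95 ± 0.72 that became -0.01 without immature 2. Ptx3 and Has2, matrix genes of the expanded cumulus that surrounds ovulated eggs, differed by -0.04 ± 0.08 and 0.07 ± 0.08. The 21 measured cumulus genes had a mean of 8.16 to 8.55 on the immature and 8.21 to 8.31 on the estrus arrays. The 11 theca and luteal cell genes had a mean of 8.30 to 8.94 and 8.30 to 8.40, and a median difference of -0.19 that was -0.37 without immature 1, 0.10 without immature 2 and -0.29 without estrus 1. In this list Scarb1, the receptor for high-density lipoprotein, differed by -0.39 ± 0.09 (0.231).

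The fat cell genes with the largest differences were highest on immature 1, as was the mean of the list. Retn, the adipokine resistin, measured 10.76, 10.28 and 9.38 on the immature and 9.31, 9.22 and 9.21 on the estrus arrays (-0.89 ± 0.29, limma adjusted p = 0.565), and the difference was -0.58 without immature 1. Adipoq, adiponectin, measured 8.37, 7.92 and 7.62 against 7.49, 7.43 and 7.57, the fatty acid carrier Fabp4 measured 9.05, 8.55 and 8.02 against 7.93, 7.87 and 7.93, and the lipase Lipe differed by -0.16 ± 0.06 (0.615). Plin1, the lipid droplet protein perilipin, was higher on immature 2 (9.23) than on immature 1 (9.02). Of 18 measured fat genes, 5 were apart and below (7.99% of all genes were), and their mean ranged from 9.03 to 9.32 on the immature and from 8.98 to 9.02 on the estrus arrays. The part of these neighbouring cells in the differences above was not tested gene by gene. With both immature 1 and immature 2 left out, which was chosen after seeing the data, the median was -0.52 for mitosis and -0.29 for S phase, and moved from -0.16 to -0.25 for centriole genes and from -0.12 to -0.29 for motile cilia. It moved from -0.23 to -0.10 for elastic fibres and proteoglycans, from -0.04 to -0.13 for smooth muscle, from -0.19 to 0.03 for theca and luteal cells, from -0.07 to 0.04 for oocytes and from -0.09 to -0.01 for fat cells. That comparison rests on 1 immature pool.

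Haemoglobin probe sets were lower in estrus. Of 4 adult haemoglobin probe sets, each with several symbols, all had every estrus array below every immature array (6.62% of all probe sets did), with a median of -0.68. Of them 1 fell past the threshold (0.0532%), with 12.46, 12.35 and 12.67 against 11.82, 11.80 and 11.65 (-0.73 ± 0.09, limma adjusted p = 0.0355). The family was put together after values had been seen. Alas2, the heme enzyme of red cell precursors, measured 8.55, 8.65 and 8.79 against 8.43, 8.42 and 8.33 (-0.27 ± 0.07, adjusted p = 0.328), below the array medians. Over 19 endothelial and blood genes 16 had a lower mean, with a median of -0.10 that was -0.06 without immature 1 and -0.05 without estrus 2, and the endothelial adhesion molecule Esam differed by -0.20 ± 0.08 (0.673). Smooth muscle genes had a median of -0.04 over 21 measured, between -0.09 and -0.00 with 1 array left out. Of the 21, 3 were apart and below (7.99% of all genes were) and 1 apart and above (2.62%). In this list the small heat shock protein Hspb6 differed by -0.35 ± 0.09 (0.292) and the muscle regulator Myocd by -0.34 ± 0.09 (0.328). Genes of uterine and posterior position, whose signal would mark tissue from further down the tract, had a median of -0.01 over 18 measured. Of the 18, 0 were apart by group, where 7.99% of all genes were apart and below and 2.62% apart and above. Genes of mesothelium and nerve had a median of -0.02 over 19. With 1 array left out these medians ranged from -0.05 to 0.04 and from -0.03 to 0.01.

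**Figure D5:**
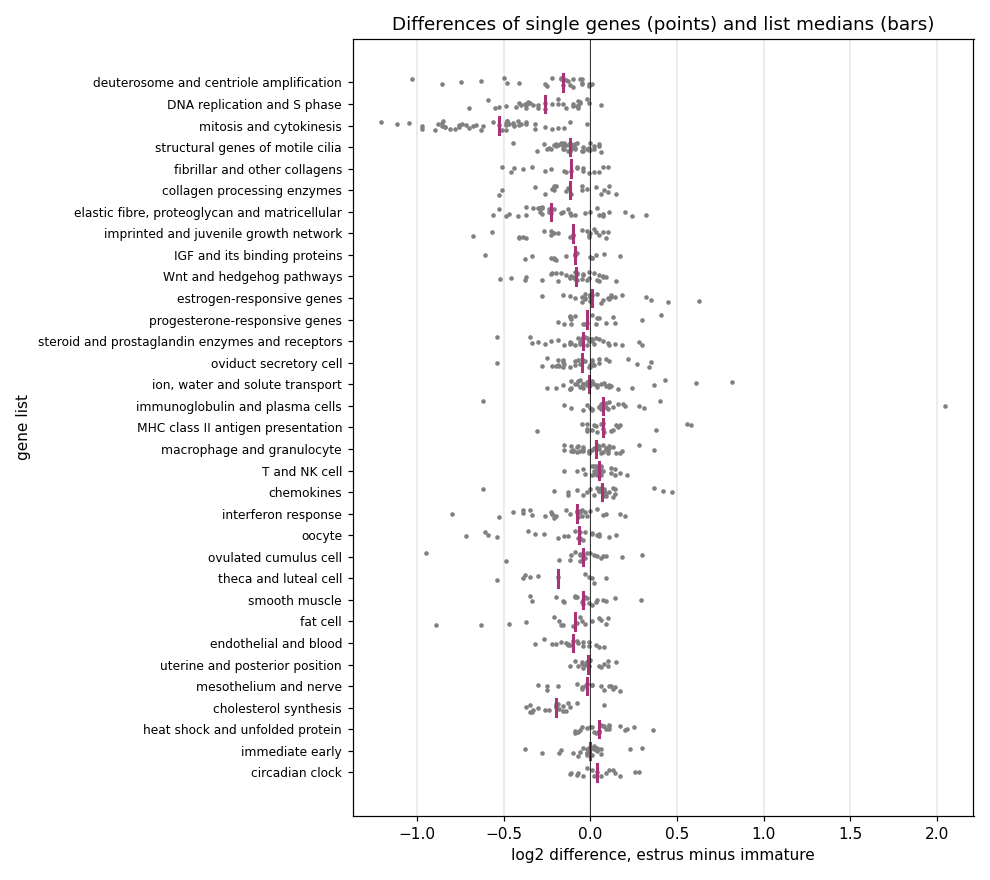
Estrus minus immature differences on the log2 scale, with a point for each measured gene of a list and a bar for the median of the list. The list of mitosis and cytokinesis has the lowest median, at -0.53, followed by S phase at -0.26, and the lists of hormone response, secretion and transport lie near 0.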

How the data were processed

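RNA of whole oviduct was measured on 9 Affymetrix arrays, 3 per group. The deposited values are log2 intensities that the authors computed with RMA in Affymetrix Expression Console, per the submitters' processing notes, and the sources used here name no version of either. RMA corrects background, makes the distributions of the arrays alike and summarises each probe set. All 28214 probe sets were kept; 21640 had 1 gene symbol in the platform's table, 1321 several and 5253 none. In lists, each of 19937 genes is represented by its brightest probe set (mean of the 9 arrays).

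A model with 3 group means was fitted to all 9 arrays with limma 3.58.1 (R 4.3.3), and the contrast of estrus minus immature was tested two-sided with moderated variances (6 residual and 3.6 prior degrees of freedom). Calls are probe sets whose p, adjusted by Benjamini-Hochberg over the whole array, was under 0.05. Arrays are apart where all 3 of a group lie on one side of all 3 of the other. In simulated data 56 of 67 probe sets changed 1.5-fold, 63 of 67 changed 2-fold and 66 of 66 changed 4-fold were called, with 11 false calls over all sizes. The simulated noise was independent and normal, and the many planted changes made the adjusted threshold easier to reach than with 24 calls. On the real arrays, 7 of the 22 probe sets with at least a 2-fold difference were called. The simulated shares are thus not shown to hold for these arrays.

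The comparison, its members and the 33 gene lists were chosen with earlier results of these data known, so lists are described by counts and medians only. Genes named are all called probe sets with 1 symbol, the 10 higher and 10 lower next by p whose arrays are apart and whose higher group mean is above the median of all probe sets, up to 4 members of a list by p and up to 2 by level, and a set named in any case (Esr1, Pgr, Ltf, Foxj1, Pax8, Wt1, Ovgp1, Mki67, Zp3, Ptx3, Has2, Inha, Pigr, Cftr). The text takes a part of these. Predicted genes, chemosensory receptors and small RNAs were not named. Igkv10-96, Mzb1, Tnfrsf17, Plin1, Dcpp2 and Car3 were added after their values were seen. Promoter sequences are RefSeq's on GRCm38.p6.

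Alternatives changed 1 choice at a time: a replicate block, removal of dim probe sets, probe sets with 1 symbol only, cyclic loess, median centring, quantile normalization again, array weights, a robust prior with an intensity trend, the 6 compared arrays alone, a threshold of 0.01, genes as means of their probe sets, and 1 array less in turn. Leaving out immature 1 and immature 2 together was chosen after seeing the data. Python 3.11.15 with pandas 2.3.3 and matplotlib 3.10.9 made tables and plots.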

Additional observations from a re-analysis of the deposited data

How the results depend on the processing

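The count of 24 calls was the result that moved most. It was 1 to 95 when any 1 array was left out, with 1 without immature 3, 2 without immature 2, 3 without estrus 2, 4 without estrus 3, 5 without diestrus 1 or diestrus 2, 7 without immature 1 or estrus 1, and 95 (24 of them shared) without diestrus 3. It was 2 with both immature 1 and immature 2 left out, 2 at an adjusted p under 0.01, 5 after cyclic loess, 12 over probe sets with 1 symbol and 1023 with array weights. The cause was not tested, except that fewer calls at a stricter threshold follow from its construction. The dim filter gave 22, quantile normalization again 22, median centring 23, the 6 arrays alone 23 (10 shared) and the trend with a robust prior 28. The higher share of the calls was 37.5%, against 20% after cyclic loess and 21.7% after median centring. These scalings shifted the median of all probe sets by at most 0.010.

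With the replicate number as a block, 4 probe sets were called, all of them lower in estrus, and 3 of them were shared. No higher call, Jchain among them, was kept under the block. Same-numbered immature and estrus arrays deviated from their group means with correlations of -0.016, -0.294 and -0.033. The numbers were therefore not taken as pairs in this comparison. For arrays 1, 2 and 3 the correlations were 0.102, -0.035 and -0.021 between immature and diestrus. Between estrus and diestrus they were 0.12, 0.169 and 0.064. Whether the numbers mark shared handling was not tested.

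Over 116 genes named, 2181 values were recomputed: 1939 kept direction and side of the threshold, 121 lost the call, 101 gained it, 65 of these with array weights, and 20 changed sign, all in genes not called. Of these, Pax8 was -0.0015 without estrus 2 and -0.01 without estrus 3 (lowest to highest with 1 array left out, -0.01 to 0.06). Wt1 (-0.02 to 0.04 with 1 left out) was -0.003 after median centring, -0.06 with array weights, -0.01 without immature 1, -0.0035 without estrus 1, -0.02 without estrus 2 and -0.01 without both immature 1 and 2. Cftr (-0.05 to 0.06) was -0.05 without immature 1, -0.0012 without estrus 2 and -0.06 without both. Ptx3 (-0.11 to 0.01) was 0.0035 without immature 2, 0.01 without estrus 3 and 0.08 without both. Inha was 0.26 without both. Plin1 (-0.15 to 0.01) was 0.01 without immature 2 and 0.06 without both. Mzb1 (-0.02 to 0.03) was -0.02 with array weights and -0.02 without estrus 2, and Tnfrsf17 was -0.01 without immature 3. Of 392 list medians under alternatives, 379 moved by less than the spread between arrays and 13 by more. With 3 pools per group, no exact permutation test of a single value can go below 0.1, and probe sets below the array medians are not shown to be above background.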

Other observations

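Cholesterol synthesis genes leaned lower in estrus. Of 20 measured, 19 had a lower mean (48.8% of all genes did) and 9 had all estrus arrays below all immature arrays (7.99%). At an unadjusted p under 0.05, 7 were lower, and none was called in limma. The median difference was -0.20 and ranged from -0.27 to -0.16 when 1 of the 6 arrays was left out. Sqle, squalene epoxidase, measured 10.87, 11.16 and 11.10 on the immature and 10.70, 10.65 and 10.72 on the estrus arrays (-0.35 ± 0.08, limma adjusted p = 0.253). Nsdhl, a sterol dehydrogenase, differed by -0.33 ± 0.09 (0.433) and Srebf2, the transcription factor that controls the pathway, by -0.20 ± 0.06 (0.507).

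Genes that respond to handling and time of day showed no called member in limma. The median was 0.05 over 25 heat shock and unfolded protein genes, -0.00 over 27 immediate early genes and 0.04 over 17 clock genes. With 1 of the 6 arrays left out these ranged from -0.02 to 0.12, from -0.01 to 0.01 and from -0.03 to 0.17, and the clock median was highest without immature 3. At an unadjusted p under 0.05 there were 1 higher in the first, 1 higher and 2 lower in the second and 1 higher in the third. Hspa1a, an inducible heat shock protein, differed by 0.36 ± 0.15 (0.752), Myc by -0.38 ± 0.15 (0.687), the matricellular early gene Ccn1 by 0.23 ± 0.09 (0.692) and the clock gene Per2 by 0.28 ± 0.09 (0.594).

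A pair of genes chosen after their values were seen had large differences that were not called. Dcpp2, a secreted protein of the oviduct and salivary glands that has near copies, measured 8.35, 7.68 and 7.91 on the immature and 6.89, 5.80 and 6.08 on the estrus arrays (-1.72 ± 0.28, limma adjusted p = 0.0864), all below the array medians. Car3, a carbonic anhydrase abundant in fat and muscle, measured 11.97, 11.31 and 10.69 against an estrus mean of 10.14 ± 0.14 (SD, n = 3; difference -1.18 ± 0.38, adjusted p = 0.558), highest on immature 1.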
